A study of Mus musculus with 4 samples.

Results

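The mRNAs of 6 ligands of the TNF family, *Cd40lg*, *Tnfsf8*, *Tnfsf11*, *Tnfsf14*, *Lta* and *Ltb*, were followed across the cell classes of hepatic CD4+ T cell preparations. They were chosen by symbol, as ligands by which helper T cells address other cells, and are 6 of the 32285 genes in the count tables. All 6 were found in both tables, and no member was used to define a cell class. The cells came from livers of mice kept for 8 weeks on a diet deficient in choline and rich in fat (60 kcal% fat, 0.1% methionine), and were sorted as CD4+ T cells and captured with a 5′ droplet kit. A library was made from WT mice and another from mice that carried floxed alleles of both genes (Nr4a1 fl/fl and Nr4a2 fl/fl) together with Cd4Cre (dKO), in which Cre driven by the Cd4 gene deletes in cells of the T lineage. Each library was pooled from 2 male mice whose cells cannot be told apart, and their age is not given in the sources used here.

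TNF family ligands are mostly trimeric type II membrane proteins that engage receptors on a neighbouring cell, and several can be shed as soluble trimers. CD40 ligand on helper T cells licenses B cells, dendritic cells and macrophages through CD40. CD30 ligand (*Tnfsf8*), RANKL (*Tnfsf11*) and LIGHT (*Tnfsf14*) act on CD30, RANK, and HVEM or the lymphotoxin β receptor. Lymphotoxin β (*Ltb*) anchors lymphotoxin α (*Lta*) at the membrane, and this heterotrimer signals through the lymphotoxin β receptor, a route known from lymphoid tissue organisation and also studied in liver injury. Activated T cells and group 3 innate lymphoid cells (ILC3) are known sources of these ligands.

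In the GENCODE annotation of GRCm38 all 6 are protein-coding genes. *Cd40lg* (ENSMUSG00000031132) lies at chrX:57212143-57224042 on the plus strand. *Tnfsf8* (ENSMUSG00000028362) lies at chr4:63831308-63861347, *Tnfsf11* (ENSMUSG00000022015) at chr14:78277445-78308043 and *Tnfsf14* (ENSMUSG00000005824) at chr17:57189492-57194177, all on the minus strand. *Ltb* (ENSMUSG00000024399, chr17:35194439-35196320, plus strand) and *Lta* (ENSMUSG00000024402, chr17:35203165-35205351, minus strand) are neighbours with *Tnf* between them, and the whole span from *Ltb* to *Lta* is 10913 bases. A miRNA gene overlaps each of these last genes, *Mir6973a* in *Ltb* and *Mir6974* in *Lta*.

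RefSeq promoter sequence of GRCm38.p6 was found for 5 of the 6 genes, *Cd40lg* being the exception. The 250 bases upstream of the RefSeq start are printed 5′ to 3′ on the strand of the gene for *Ltb*, the member that was higher in the dKO library in both main gates, for its neighbour *Lta*, and for *Tnfsf14*, which was lower there. Capitals mark matches to an AP-1 site, a κB-like site or a TATA box.
Ltb (chr17:35194257-35194506, plus strand): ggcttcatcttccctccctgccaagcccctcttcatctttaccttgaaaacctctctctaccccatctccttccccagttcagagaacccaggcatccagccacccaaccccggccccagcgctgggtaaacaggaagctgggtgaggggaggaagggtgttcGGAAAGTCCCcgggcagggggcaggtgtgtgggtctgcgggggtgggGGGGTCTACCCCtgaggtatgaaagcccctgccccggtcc
Lta (chr17:35205352-35205601, minus strand): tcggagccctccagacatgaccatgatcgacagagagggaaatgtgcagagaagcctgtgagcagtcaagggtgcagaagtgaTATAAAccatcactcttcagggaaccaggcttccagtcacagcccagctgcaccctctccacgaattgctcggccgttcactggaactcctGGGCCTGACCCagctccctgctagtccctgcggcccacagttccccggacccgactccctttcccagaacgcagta
Tnfsf14 (chr17:57194182-57194431, minus strand): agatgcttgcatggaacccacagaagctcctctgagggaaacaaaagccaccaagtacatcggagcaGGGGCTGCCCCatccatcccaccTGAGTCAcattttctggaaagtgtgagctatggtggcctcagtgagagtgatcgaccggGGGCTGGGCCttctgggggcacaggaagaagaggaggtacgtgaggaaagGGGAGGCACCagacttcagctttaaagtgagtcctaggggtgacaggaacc
On both strands, TGACTCA or TGAGTCA (AP-1) was found in 1 of the 5 windows, at 160 to 154 bases upstream of *Tnfsf14*, and in 4.46% of 32851 promoter windows of the same length. A κB-like match, GGG and CC with 5 bases between them, was found in 4 of the 5, against 45.8% of all windows. *Ltb* and *Tnfsf14* held 4 overlapping or separate matches each and *Tnfsf11* and *Lta* 2 each. The GENCODE start of *Ltb* (chr17:35194439) lies within its window, before the RefSeq start. The *Ltb* matches at 40 to 29 bases upstream therefore lie inside the gene as GENCODE places it. The *Ltb* match GGAAAGTCCC, at 87 to 78 bases upstream, also holds the NFAT core GGAAA, which was found in all 5 windows and in 55.6% of all windows. TATAAA was found in 2 of the 5, 32 to 27 bases upstream of *Tnfsf11* (read on the opposite strand) and 167 to 162 bases upstream of *Lta*, against 12.4% of all windows. AAAGGTCA, the NBRE that NR4A proteins can bind as monomers, was in none of the 5 windows and in 1.34% of all windows. These are matches of letters in short windows and no binding was measured.

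The tables held 10602 cells labelled WT and 17645 labelled dKO, of which 10556 and 17462 were kept, with 23437516 and 37794986 UMIs (unique molecular identifiers, 1 per captured RNA molecule). The median cell had 1679 and 1685 UMIs, and 245 cell barcodes occurred in both libraries. The deleted genes went against the labels: *Nr4a1* mRNA was 725 CPM (UMIs of the gene per 1000000 UMIs of the cells summed) in the library labelled WT and 1659 CPM in the library labelled dKO, and *Nr4a2* mRNA was 183 and 306 CPM. These counts give the gene of a molecule and not the exon, so RNA of a deleted allele would still be counted, and the libraries are named here by their labels. Only 32.7% and 23.5% of the cells had a T cell receptor β chain (TRB) contig, and the sort also held 1494 and 3780 cells of a plasmacytoid dendritic cell (pDC) gate and 327 and 464 of a myeloid gate. With 1 library per genotype there are no replicates, and the genotypes were compared without a test. Ranges in parentheses after a value are its exact 95% interval and cover counting error alone, not differences between mice, preparations or sequencing runs.

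T cells were cells with a TRB contig, 3084 labelled WT and 3669 labelled dKO. Invariant natural killer T cells, 43 and 51 cells described below, were kept apart from both of the following gates. The others were divided by Foxp3 mRNA into Foxp3+ T cells (at least 1 UMI, 209 and 1069 cells, 6.78% and 29.1% of all T cells) and Foxp3- T cells (none, 2832 and 2549 cells). The medians were 2974 and 2045 UMIs per Foxp3+ cell and 2081.5 and 1536 per Foxp3- cell. A cell of low depth can miss *Foxp3*, and the gates do not mark the same cells in both libraries: in the Foxp3- gate the summed level of 5 other regulatory T cell genes (*Ctla4*, *Il2ra*, *Ikzf2*, *Tnfrsf18* and *Il10*, none at 0) was 715 CPM labelled WT and 2594 CPM labelled dKO, beside 3087 and 4514 CPM in the Foxp3+ gate. *Cd4* mRNA also differed, at 250 and 819 CPM in Foxp3- cells, as did *Ccl5*, at 1533 and 7152 CPM. Their part in the differences below was not tested, beyond the division by the regulatory T cell genes given after them.

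In Foxp3- T cells *Cd40lg* and *Tnfsf14* mRNA were lower in the library labelled dKO, *Ltb* and *Tnfsf8* mRNA were higher, and *Tnfsf11* and *Lta* did not differ beyond counting error. *Cd40lg* was 461 CPM (445 to 477; 3278 UMIs) labelled WT and 154 CPM (144 to 166; 758 UMIs) labelled dKO, a log2 ratio of dKO over WT of −1.58 (−1.69 to −1.46). *Tnfsf14* was scarce, at 16.9 CPM (14.0 to 20.2) and 6.11 CPM (4.12 to 8.72), with a log2 ratio of −1.47 (−2.09 to −0.88). These were the 2 of 6 members past 2-fold in this gate, both lower in the library labelled dKO, where 4.66% of 11312 genes with at least 20 UMIs were past 2-fold lower. Each left this count under 1 alternative, *Cd40lg* at −0.94 in cells with no UMI of 5 regulatory T cell genes and *Tnfsf14* at −0.91 with 1 cell per clonotype. None of the 6 was past 2-fold higher, beside 4.37% of those genes. *Ltb* was 506 CPM (489 to 523) and 774 CPM (749 to 799), a log2 ratio of 0.61 (0.55 to 0.68). *Tnfsf8* was 205 CPM (194 to 216) and 281 CPM (266 to 296), a log2 ratio of 0.45 (0.35 to 0.56). The intervals of the log2 ratios of *Tnfsf11* (117 and 107 CPM; −0.14, −0.30 to 0.02) and *Lta* (21.6 and 19.7 CPM; −0.13, −0.51 to 0.24) included 0. The median log2 ratio was −0.14 over the members and −0.04 over all genes tested.

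In Foxp3+ T cells *Ltb* had a higher level in the library labelled dKO. The other members had a lower one, though not all of them beyond counting error after thinning. *Cd40lg* was 206 CPM (174 to 243) and 32.4 CPM (26.1 to 39.7), a log2 ratio of −2.67 (−3.06 to −2.28). *Tnfsf11* was 98.9 and 23.6 CPM, from 70 and 67 UMIs, a log2 ratio of −2.07 (−2.57 to −1.56). Neither interval of these ratios came near 0. *Lta* was 25.4 and 8.80 CPM, from 18 and 25 UMIs, with a log2 ratio of −1.53 (−2.46 to −0.57). With *Lta*, 3 of the 5 members that had 20 UMIs were past 2-fold lower, where 4.56% of 9248 genes were, and none was past 2-fold higher, where 5.49% of genes were. With gates read from thinned counts *Lta* left this count, at −0.47 (−2.20 to 1.62). *Tnfsf8* was 174 and 95.8 CPM, a log2 ratio of −0.86 (−1.17 to −0.54), opposite in direction to that in Foxp3- cells. After each cell was thinned to 1000 UMIs the *Tnfsf8* levels were 109 and 91.2 CPM, and the interval of the ratio included 0 (−0.26, −0.94 to 0.49). *Ltb* was 600 CPM (545 to 660) and 930 CPM (894 to 966), a log2 ratio of 0.63 (0.48 to 0.78), close to its ratio in Foxp3- cells. *Tnfsf14* had 10 UMIs labelled WT and 3 labelled dKO, too few for the 2-fold count, with a log2 ratio of −3.74 (−6.24 to −1.78). Of the 10 UMIs, 4 came from 1 cell. After thinning 1 UMI was left in each library, and the interval of the ratio included 0 (−2.26, −8.55 to 4.04). The median log2 ratio was −1.53 over the 5 members tested and −0.0043 over all genes tested.

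**Figure D1:**
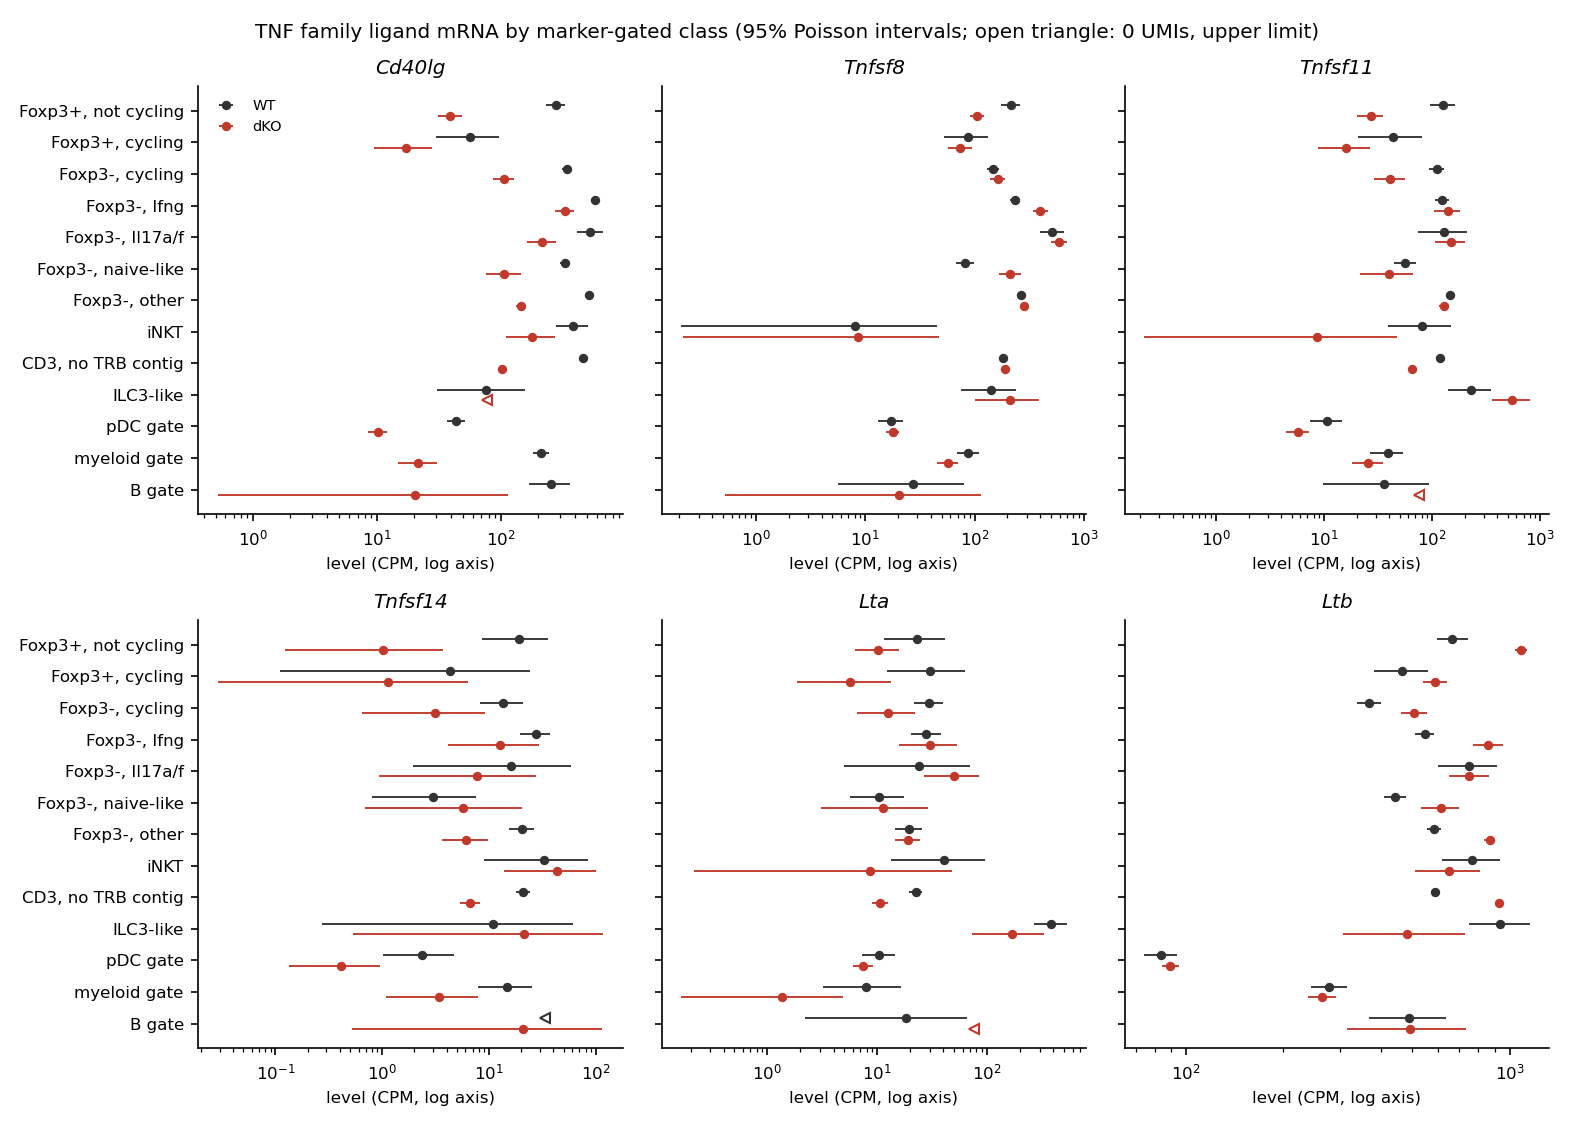
Level of each ligand mRNA in CPM (log axis) in 13 marker-gated classes, with the WT-labelled library in black and the dKO-labelled library in red. Points are levels, bars exact 95% Poisson intervals, and open triangles the upper limit where 0 UMIs were counted. *Cd40lg* was lower in the dKO-labelled library in every T cell class drawn, and *Lta* stood highest in ILC3-like cells in both libraries.

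The Foxp3- cells were divided further, by detected mRNA, into cells with *Ifng*, cells with *Il17a* or *Il17f*, naive-like cells (at least 2 genes detected of a naive T cell list that includes *Ccr7*, *Lef1* and *Dapl1*), cycling cells and other cells. Invariant natural killer T (iNKT) cells were those with a TRAV11-TRAJ18 α chain, 43 and 51 cells, and held 342 and 197 CPM of *Zbtb16*, beside 13.6 and 15.9 CPM. ILC3-like cells had neither a TRB contig nor *Cd3e*, *Cd3d* or *Cd3g* mRNA and at least 2 UMIs of a gate list that includes *Il23r* and *Il22*. There were only 42 and 24 of them, with 1317 and 1199 CPM of *Il1r1*, *Kit* and *Id2*, and with 3068 and 19034 CPM of the B cell and antigen presentation genes *Cd79b* and *Cd74*. Cells with CD3 mRNA but no TRB contig, 4522 and 8374, were kept apart. Cells with both *Ifng* and *Il17a* or *Il17f* numbered 10 and 2 and are not ranked.

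*Cd40lg*, the ligand of CD40, was highest in cells with *Ifng* in both libraries, at 579 CPM (541 to 619) labelled WT and 329 CPM (275 to 391) labelled dKO. In the library labelled WT the cells with *Il17a* or *Il17f* (530 CPM) and the other Foxp3- cells (512 CPM) followed with overlapping intervals. Naive-like cells had 333 CPM, cycling Foxp3- cells 342 CPM and iNKT cells 382 CPM, which did not differ beyond their intervals. Lowest among the T cells were cycling Foxp3+ cells, at 56.4 CPM from 13 UMIs. The dKO-labelled library had a similar order at a lower level, with 217 CPM in cells with *Il17a* or *Il17f*, 146 CPM in other Foxp3- cells, 107 CPM in naive-like cells and 39.3 CPM (31.0 to 49.1) in Foxp3+ cells outside the cycle. Spearman's rho between the libraries over 13 classes was 0.93, as a description. ILC3-like cells had 7 UMIs (76.2 CPM) labelled WT and 0 labelled dKO, which allows up to 77.6 CPM. Of the 7 WT-labelled UMIs, 6 came from 1 cell, and without it the level was 11.5 CPM (0.29 to 64.3).

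Between the libraries *Cd40lg* was lower in all 9 T cell classes of the library labelled dKO, with no interval that reached 0. After each cell was thinned to 1000 UMIs 7 of the 9 intervals lay below 0, and those of iNKT cells and of cycling Foxp3+ cells, which had few UMIs, included it. The smallest difference was in cells with *Ifng*, a log2 ratio of −0.82 (−1.09 to −0.55). The largest was in Foxp3+ cells outside the cycle, −2.83 (−3.25 to −2.41), followed by cells with CD3 mRNA but no TRB contig, at −2.18 (−2.27 to −2.09). In between lay iNKT cells (−1.09), cells with *Il17a* or *Il17f* (−1.29), naive-like cells (−1.63), cycling Foxp3- cells (−1.69), cycling Foxp3+ cells (−1.73) and other Foxp3- cells (−1.81). The pDC gate, which should not transcribe the gene, also had less in the library labelled dKO, 10.1 CPM beside 43.5 CPM (log2 ratio −2.10, −2.46 to −1.74). The myeloid gate had 21.5 CPM beside 211 CPM, and it also held *Cd3e* mRNA at 310 and 417 CPM.

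**Figure D2:**
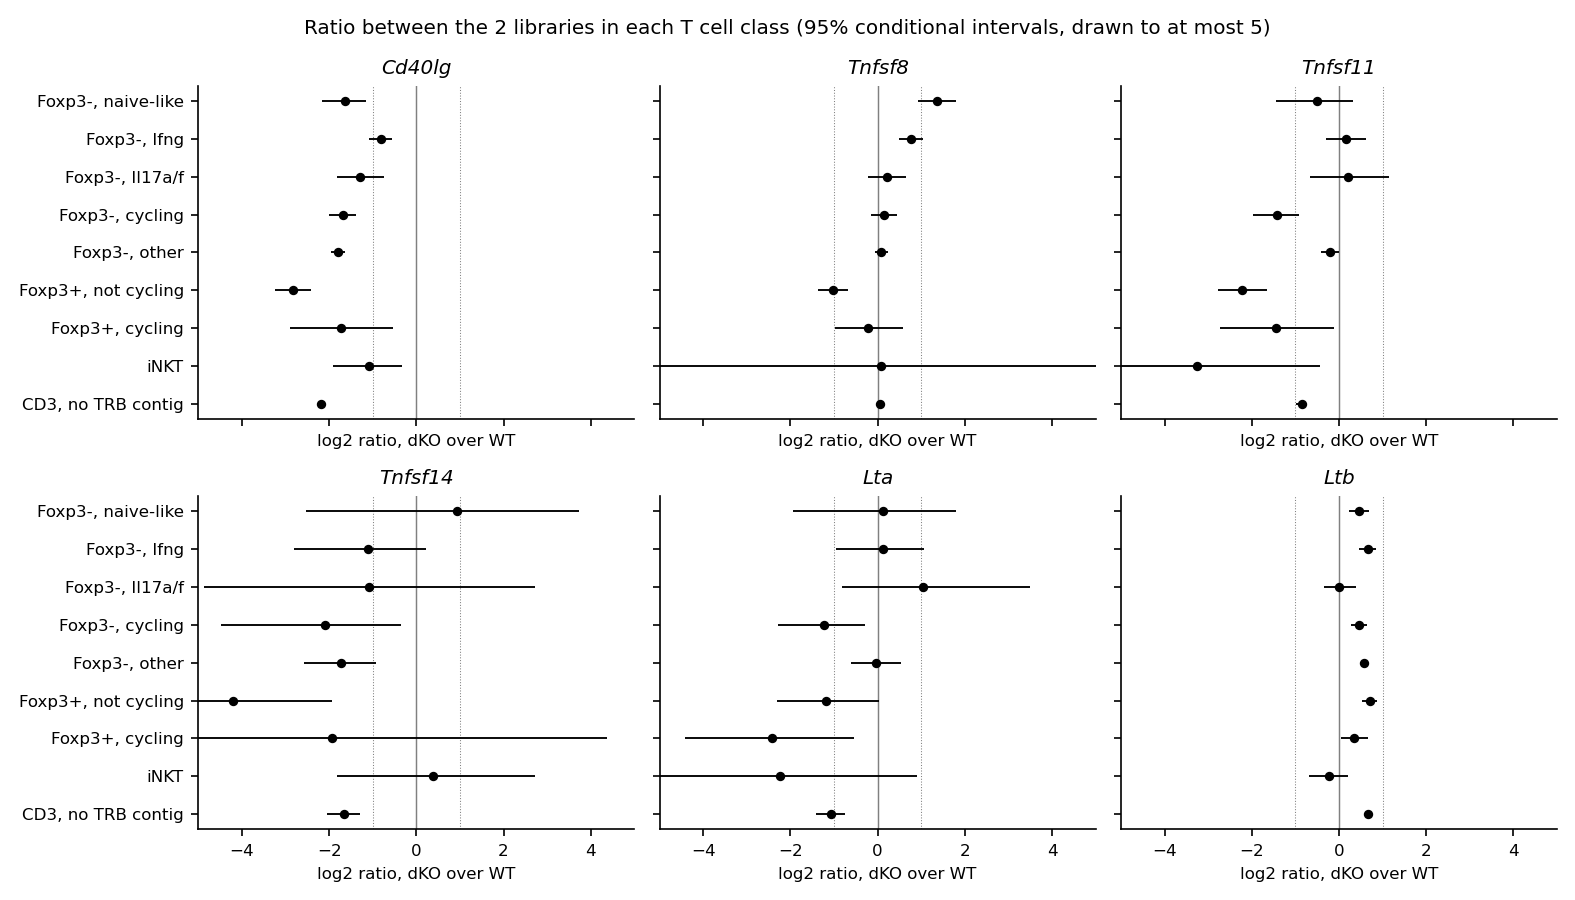
Log2 ratio of CPM, dKO-labelled over WT-labelled library, of each ligand in 9 T cell classes, with exact conditional 95% intervals drawn to at most 5 and dotted lines at 2-fold. All 9 *Cd40lg* intervals lie below 0, 7 of 9 *Ltb* intervals lie above 0, and *Tnfsf8* lies on both sides.

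*Tnfsf8*, the ligand of CD30, was highest in cells with *Il17a* or *Il17f* in both libraries, at 514 CPM (396 to 657) and 595 CPM (505 to 696). Its level there over that in other Foxp3- cells was a log2 ratio of 0.95 (0.56 to 1.32) labelled WT and 1.08 (0.82 to 1.32) labelled dKO. In this contrast 0 and 2 of the 6 members, *Tnfsf8* and *Lta*, were past 2-fold higher, beside 7.24% and 4.33% of genes. At the other end of the order stood iNKT cells with 1 UMI in each library (8.14 and 8.54 CPM), a log2 ratio to Foxp3- T cells of −4.65 (−9.96 to −2.17) and −5.04 (−10.34 to −2.56). Such counts come from 43 and 51 cells. In iNKT cells 1 of 6 members labelled WT and 3 of 6 labelled dKO were past 2-fold lower than in Foxp3- T cells, beside 25.0% and 26.8% of genes. Each of these rested on 1 UMI in iNKT cells, and the interval of *Lta* labelled dKO included 0 (−6.53 to 1.30). *Tnfsf14* labelled dKO was the only member past 2-fold higher, beside 8.24% of genes.

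*Tnfsf8* lay on either side between libraries, by class and with or without thinning. It was higher in the library labelled dKO in naive-like cells, 212 CPM beside 82.2 CPM (log2 ratio 1.37, 0.92 to 1.80), and in cells with *Ifng*, 400 CPM beside 234 CPM (0.77, 0.49 to 1.05). It was lower in Foxp3+ cells outside the cycle, 106 CPM beside 216 CPM (−1.03, −1.38 to −0.68). Of these only the difference in cells with *Ifng* remained beyond counting error once each cell was thinned to 1000 UMIs (0.58, 0.11 to 1.04). Thinned naive-like cells had 93.2 CPM (15 UMIs in 161 cells) beside 61.1 CPM (29 UMIs in 475 cells), and their ratio had an interval that included 0 (0.61, −0.40 to 1.56), as did that of Foxp3+ cells outside the cycle (−0.35, −1.09 to 0.46). In the other 6 T cell classes the interval before thinning included 0, with 282 and 267 CPM in other Foxp3- cells (0.08, −0.06 to 0.23). After thinning cells with *Il17a* or *Il17f* (0.82, 0.14 to 1.57) and cells with CD3 mRNA but no TRB contig (0.22, 0.08 to 0.36) had higher levels in the library labelled dKO. The pDC gate had 17.8 and 17.2 CPM.

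Cells with CD3 mRNA but no TRB contig, the largest class, differed in makeup between the libraries: 6.08% of them labelled WT and 27.2% labelled dKO had a *Foxp3* UMI. They held 463 CPM (449 to 478) of *Cd40lg* labelled WT and 102 CPM (96.6 to 108) labelled dKO, and 588 and 929 CPM of *Ltb*. *Cd40lg*, *Tnfsf14* and *Lta* were past 2-fold lower in the library labelled dKO, 3 of 6 members beside 6.21% of 12438 genes, and none was past 2-fold higher, beside 6.58%. *Tnfsf8* was 184 and 190 CPM in these cells, and the interval of their ratio included 0. Divided by *Foxp3*, a division made after these values were seen, *Cd40lg* was 477 and 133 CPM in cells without a *Foxp3* UMI (log2 ratio −1.85, −1.94 to −1.75) and 305 and 36.7 CPM in cells with one (−3.05, −3.37 to −2.74). *Tnfsf8* was 190 and 235 CPM without a *Foxp3* UMI (0.31, 0.21 to 0.41). In cells with one it was 109 and 94.0 CPM, with an interval that included 0 (−0.21, −0.58 to 0.17), so the lower *Tnfsf8* level of the Foxp3+ gate was not seen beyond counting error here.

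*Tnfsf11*, which encodes RANKL, was highest in ILC3-like cells, at 228 CPM (141 to 349; 21 UMIs) labelled WT and 547 CPM (357 to 801; 26 UMIs) labelled dKO. Labelled WT this interval overlapped that of other Foxp3- cells, the next in order. The log2 ratio of dKO over WT was 1.26 (0.37 to 2.16), but these UMIs came from 9 and 8 cells, and 1 cell of each library held 9 and 8 of them. Without those cells it was 1.68 (0.55 to 2.87), from 12 and 18 UMIs, and after thinning to 1000 UMIs its interval included 0 (0.54, −1.20 to 2.28). Among T cells the WT-labelled levels ran from 148 CPM in other Foxp3- cells to 43.4 CPM in cycling Foxp3+ cells, and all neighbours in that order overlapped. Naive-like cells were low, at 56.3 and 39.5 CPM. Between libraries it was lower in the dKO-labelled one in 7 of 9 T cell classes, in 6 of them with an interval below 0 (2 after thinning). Among these were Foxp3+ cells outside the cycle, 27.0 CPM beside 126 CPM (−2.22, −2.78 to −1.66). Cycling Foxp3- cells had 40.9 CPM beside 110 CPM (−1.43, −1.98 to −0.92). Cells with CD3 mRNA but no TRB contig had 64.5 CPM beside 117 CPM (−0.86, −0.99 to −0.72), from 841 and 979 UMIs. After thinning the ratio in Foxp3+ cells outside the cycle was −1.91 (−2.98 to −0.80). That in cycling Foxp3- cells had an interval that included 0 (−0.54, −1.64 to 0.47). Thinned cells with CD3 mRNA but no TRB contig had 68.7 CPM (62.3 to 75.6) beside 115 CPM (104 to 127). In cells with *Ifng*, 139 and 124 CPM, and with *Il17a* or *Il17f*, 149 and 129 CPM, the intervals included 0.

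*Tnfsf14*, which encodes LIGHT, had few UMIs in most classes, and neighbours in its order overlapped throughout. The highest values, 32.5 and 42.7 CPM in iNKT cells, came from 4 and 5 UMIs. Cells with *Ifng* had 27.4 CPM (19.6 to 37.3) labelled WT and 12.7 CPM (4.11 to 29.5) labelled dKO, and naive-like cells 2.96 and 5.65 CPM. The dKO-labelled level was lower in 7 of 9 T cell classes, in 4 of them beyond counting error (2 after thinning), among these other Foxp3- cells (6.12 beside 20.3 CPM; −1.73, −2.59 to −0.94) and cells with CD3 mRNA but no TRB contig (6.60 beside 20.9 CPM; −1.66, −2.05 to −1.28).

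*Lta*, the soluble or LTβ-bound lymphotoxin α, stood out in ILC3-like cells, with 381 CPM (265 to 530; 35 UMIs) labelled WT and 168 CPM (72.6 to 332; 8 UMIs) labelled dKO. Over Foxp3- T cells these were log2 ratios of 4.14 (3.56 to 4.67) and 3.09 (1.84 to 4.13). No other ranked class had more than 49.6 CPM in either library, and in the library labelled dKO the ILC3-like interval overlapped that of cells with *Il17a* or *Il17f*, at 49.6 CPM. Of the 35 WT-labelled UMIs, 20 came from the same cell, and without it the level was 166 CPM (92.8 to 273). Between libraries, 6 of 9 T cell classes were lower in the one labelled dKO, 3 of them beyond counting error (2 after thinning).

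*Ltb*, the membrane anchor of the lymphotoxin heterotrimer, was detected broadly, from 368 to 936 CPM over the T cell and ILC3-like classes labelled WT and from 484 to 1083 CPM labelled dKO. Foxp3+ cells outside the cycle had 666 CPM (595 to 743) and 1083 CPM (1037 to 1130), the highest level of the dKO-labelled library. In the WT-labelled library ILC3-like cells (936 CPM), iNKT cells (765 CPM) and cells with *Il17a* or *Il17f* (747 CPM) were highest, with overlapping intervals. Cycling cells were low, with 368 and 508 CPM in Foxp3- cells and 464 and 588 CPM in Foxp3+ cells. The *Ltb* level was higher in the library labelled dKO in 8 of 9 T cell classes, in 7 of them beyond counting error (6 after thinning), with log2 ratios of at most 0.70 (0.53 to 0.88; Foxp3+ cells outside the cycle). Cells with *Il17a* or *Il17f* had nearly equal levels (747 and 751 CPM; 0.01, −0.35 to 0.38), and ILC3-like cells went the other way (936 and 484 CPM; −0.95, −1.68 to −0.27), although after thinning (714 and 583 CPM, from 25 and 14 UMIs) the interval of that ratio included 0 (−0.29, −1.35 to 0.71). The pDC gate held 83.7 and 89.4 CPM.

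The proportion of the partner chains of the lymphotoxin heterotrimer was then compared between ILC3-like cells and the other classes. *Lta* made up 28.9% (35 of 121) of the *Lta* and *Ltb* UMIs of ILC3-like cells labelled WT and 25.8% (8 of 31) labelled dKO, and 15% (8.65 to 23.5) and 21.4% (8.30 to 41.0) without the cell with the most *Lta* UMIs in each. In Foxp3- T cells the share was 4.10% and 2.49%, and in Foxp3+ cells outside the cycle 3.34% and 0.933%. Other classes lay nearer to ILC3-like cells, with 7.46% (5.47 to 9.88) in cycling Foxp3- cells and 6.14% (2.50 to 12.2) in cycling Foxp3+ cells labelled WT, 6.19% (3.34 to 10.4) in cells with *Il17a* or *Il17f* labelled dKO, and 11.01% and 7.69% in the pDC gate. Without the cell with the most *Lta* UMIs the ILC3-like interval overlapped each of these of its own library. Over the 6 members, 1 labelled WT (*Lta*) and 3 labelled dKO (*Tnfsf11*, *Tnfsf14* and *Lta*) were past 2-fold higher in ILC3-like than in Foxp3- T cells, beside 18.1% and 16.6% of genes. *Tnfsf14* entered this count on 1 UMI, with an interval that included 0 (−3.57 to 4.37), and without that cell it had 0 UMIs and 2 members were left. *Cd40lg* was past 2-fold lower there in both libraries, the only member that was, beside 29.7% and 40.6% of genes. Labelled dKO this is a count of 0 UMIs, and the interval of its ratio reached −0.99.

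Foxp3+ and Foxp3- cells of the same library were then compared. In the library labelled WT only *Cd40lg* was past 2-fold lower in Foxp3+ cells (206 beside 461 CPM; log2 ratio −1.16, −1.41 to −0.92), 1 of 6 members where 7.07% of 10632 genes were. This ratio was −0.84 with only cells that had a *Cd4* UMI, −0.88 with T cells called by a TRB contig or a CD3 UMI and −0.97 with 1 cell per clonotype, so that 2-fold was not passed there. *Tnfsf8*, *Tnfsf11*, *Tnfsf14* and *Lta* had intervals that included 0, although after thinning that of *Tnfsf8* lay below it (−0.88, −1.57 to −0.27). In the library labelled dKO 5 of 6 members were past 2-fold lower in Foxp3+ cells, where 2.85% of 10577 genes were. The log2 ratios were −2.25 (−2.58 to −1.94) for *Cd40lg*, −1.55 (−1.74 to −1.36) for *Tnfsf8*, −2.18 (−2.57 to −1.81) for *Tnfsf11*, −2.53 (−4.89 to −0.85) for *Tnfsf14* and −1.17 (−1.86 to −0.52) for *Lta*. With at least 2 *Foxp3* UMIs for a Foxp3+ cell that of *Lta* was −0.62 (−1.45 to 0.13), no longer past 2-fold. After thinning *Cd40lg*, *Tnfsf8* and *Tnfsf11* were past 2-fold lower with intervals below 0, while the intervals of *Lta* and of *Tnfsf14*, from 1 and 13 UMIs, included 0. *Ltb* was higher in Foxp3+ cells in both libraries, by 0.25 (0.10 to 0.39) and 0.27 (0.19 to 0.34). None was past 2-fold higher, beside 5.69% and 2.17% of genes. The median log2 ratio of the members was −0.24 labelled WT and −1.86 labelled dKO, and that of all genes tested 0.02 and 0.05. The Foxp3- and Foxp3+ profiles of each library also enter the comparisons between libraries above, so these values are not independent of them.

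Because the Foxp3- gate of the library labelled dKO held more mRNA of regulatory T cell genes, each cell was thinned to 1000 UMIs and Foxp3- cells were divided by their UMIs of *Ctla4*, *Il2ra*, *Ikzf2*, *Tnfrsf18* and *Il10*. Of the Foxp3- cells labelled WT 60.8% had 0 such UMIs, 22.2% had 1 and the rest, 452 cells, had 2 or more, while of those labelled dKO 25.4% had 0, 20.4% had 1 and 54.1% had 2 or more. *Cd40lg* was 453 CPM labelled WT and 255 CPM labelled dKO in cells with 0 UMIs, a log2 ratio of −0.83 (−1.10 to −0.57). In cells with 2 or more it was 489 and 83.1 CPM, a log2 ratio of −2.56 (−2.91 to −2.21). With 1 such UMI *Cd40lg* was 547 and 263 CPM (−1.06, −1.37 to −0.75), with an interval that overlapped the one at 0 UMIs. The *Cd40lg* difference was thus present in each division, and it was wider beyond counting error only at 2 or more UMIs. *Tnfsf8* differed in direction between the divisions, from 126 and 262 CPM at 0 UMIs (1.05, 0.74 to 1.37) to 354 and 259 CPM at 2 or more (−0.45, −0.73 to −0.17). So did *Tnfsf11*, from 84.6 and 146 CPM (0.79, 0.37 to 1.20) to 150 and 86.5 CPM (−0.80, −1.25 to −0.33). With 1 such UMI *Tnfsf11* was 174 and 182 CPM, with an interval that included 0 (0.06, −0.38 to 0.50). Its near-equal level over the whole Foxp3- gate thus covers divisions that differed in direction and whose shares of cells differed between the libraries. The part of each was not tested. *Ltb* was higher in the dKO-labelled library in all divisions, with log2 ratios of 0.57, 0.46 and 0.58, and 0.66 in Foxp3+ cells. *Tnfsf14* and *Lta* had at most 35 UMIs per division, and their intervals in the Foxp3- divisions included 0.

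**Figure D3:**
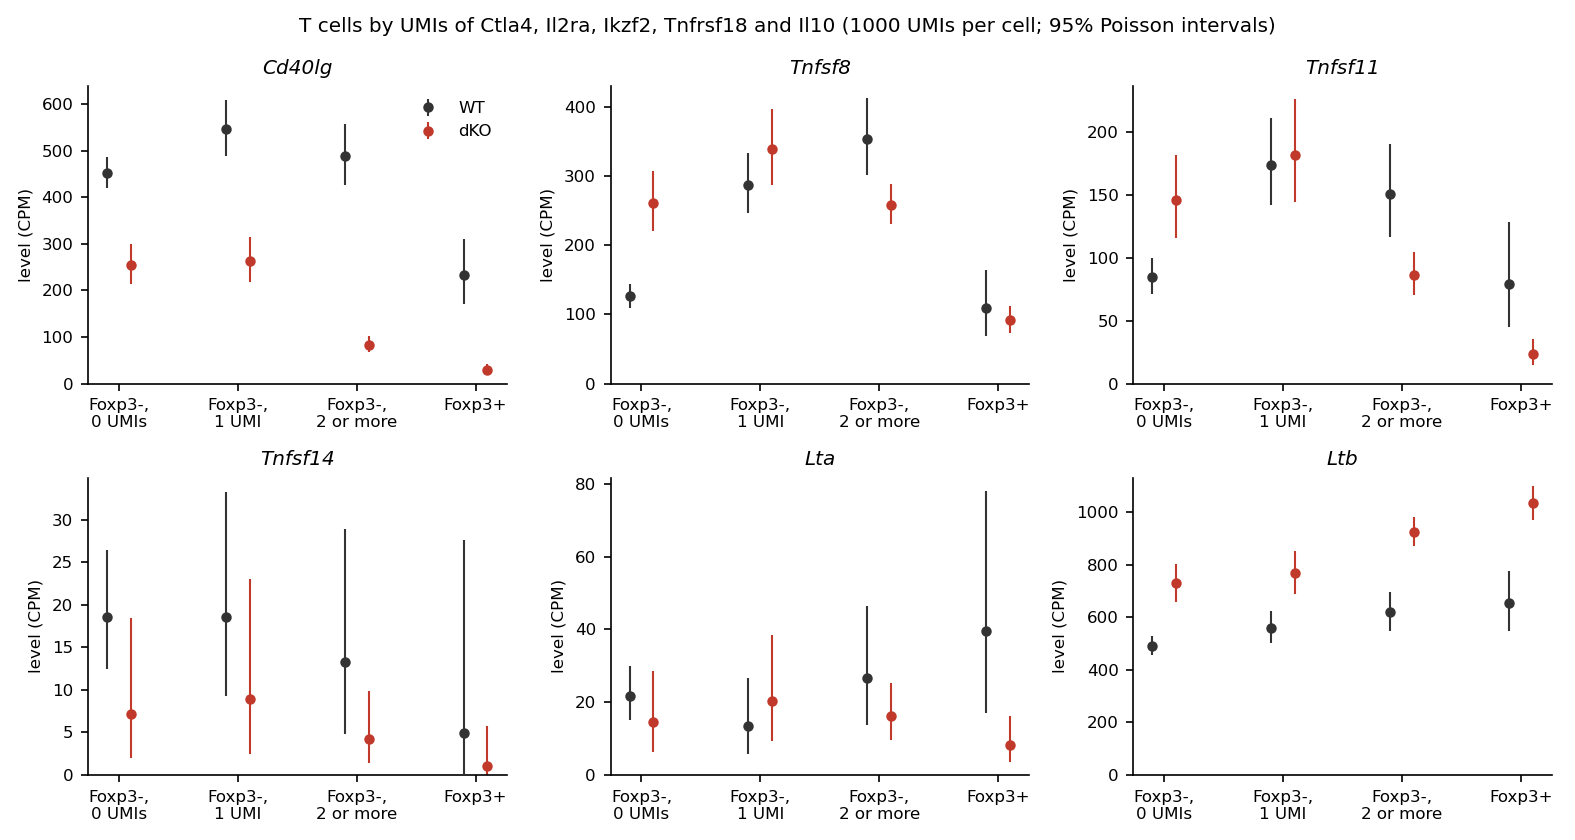
Level in CPM (linear axis from 0) in Foxp3- T cells with 0, 1 and 2 or more UMIs of *Ctla4*, *Il2ra*, *Ikzf2*, *Tnfrsf18* and *Il10*, and in Foxp3+ T cells, each cell thinned to 1000 UMIs, with exact 95% Poisson intervals, WT-labelled in black and dKO-labelled in red. *Cd40lg* labelled dKO lies below WT-labelled in every division, from 255 beside 453 CPM to 29.0 beside 233 CPM, while *Tnfsf8* and *Tnfsf11* cross.

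Sister cells that share a receptor were examined next, since 1 large clone can set the level of a gate. The largest clones labelled WT had 83, 63 and 63 cells, of which 0%, 1.59% and 3.17% were Foxp3+. The largest labelled dKO had 419, 70 and 55 cells, of which 37.0%, 41.4% and 58.2% were Foxp3+. In these dKO-labelled clones the regulatory T cell genes summed to 4983, 4610 and 5541 CPM in the Foxp3- cells and 5269, 5402 and 5232 CPM in the Foxp3+ cells, so the Foxp3 gate divided cells with like levels of those genes. The Foxp3- cells of the WT-labelled clones had 241, 694 and 523 CPM.

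The Foxp3- cells of the 3 largest clones labelled WT had 498, 711 and 705 CPM of *Cd40lg*, and those of the 3 largest labelled dKO 18.4, 28.6 and 0 CPM (7, 2 and 0 UMIs, the last of which allows up to 92.5 CPM). *Ltb* in the same cells was 442, 437 and 553 CPM labelled WT and 1078, 888 and 1128 CPM labelled dKO. *Tnfsf8* varied most between clones, with 20.1, 146 and 265 CPM labelled WT and 186, 0 and 0 CPM labelled dKO. Cells whose receptor was seen once, 1657 and 1380 Foxp3- cells, gave the same directions as the whole gate for *Cd40lg* (390 and 188 CPM), *Tnfsf8* (174 and 324 CPM) and *Ltb* (502 and 767 CPM). *Tnfsf11* in these cells was 94.8 CPM (85.7 to 105) and 126 CPM (113 to 140), higher in the library labelled dKO. In clones of 10 to 49 cells *Tnfsf8* went the other way, at 329 and 49.9 CPM, and *Cd40lg* was 609 and 78.1 CPM.

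**Figure D4:**
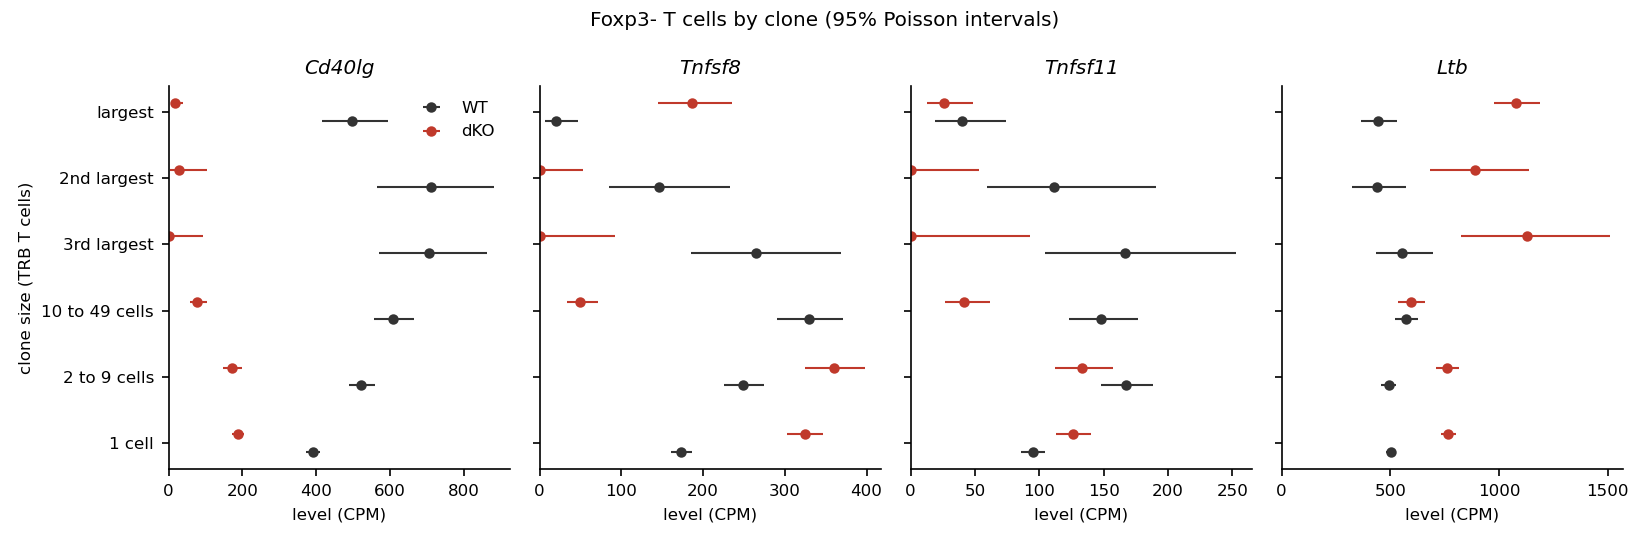
Level in CPM of 4 ligands in Foxp3- T cells by size of their clone, for the 3 largest clones of each library and for pooled size groups, with exact 95% Poisson intervals, WT-labelled in black and dKO-labelled in red. *Cd40lg* labelled dKO lies left of WT-labelled in every size group, *Ltb* lies right except in clones of 10 to 49 cells, where the intervals overlap, and *Tnfsf8* lies on either side.

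Helper ligands are known to be induced by T cell receptor signals, and Foxp3- cells were therefore also divided by UMIs of 8 receptor-induced genes (*Egr2*, *Egr3*, *Nr4a1*, *Nr4a3*, *Irf4*, *Nfatc1*, *Tnfrsf9* and *Cd69*) after thinning. The list holds *Nr4a1*, one of the deleted genes, which was 707 CPM labelled WT and 1689 CPM labelled dKO in Foxp3- cells. *Nr4a3* was 285 and 295 CPM. Of cells labelled WT 14.8% and of those labelled dKO 28.8% had 4 or more UMIs. A division can thus hold unlike cells in the 2 libraries, and the part of *Nr4a1* in this was not tested. *Cd40lg* labelled WT was 365, 427, 521 and 737 CPM in cells with 0, 1, 2 to 3 and 4 or more UMIs, and labelled dKO 133, 142, 161 and 203 CPM. From the lowest to the highest division this was a log2 ratio of 1.01 (0.78 to 1.25) and 0.61 (0.15 to 1.08), so *Cd40lg* was higher where these genes were detected in both libraries. *Tnfsf8* went from 103 to 377 CPM labelled WT and from 183 to 389 CPM labelled dKO (1.87, 1.47 to 2.27, and 1.08, 0.71 to 1.47). *Tnfsf11* went from 67.6 to 208 CPM and from 91.7 to 136 CPM (1.62, 1.11 to 2.14, and 0.56, 0.0049 to 1.14). *Ltb* differed less, with 564 and 486 CPM labelled WT (−0.21, −0.46 to 0.03) and 773 and 944 CPM labelled dKO (0.29, 0.09 to 0.49). Within the divisions, the log2 ratio of dKO over WT for *Cd40lg* lay between −1.46 and −1.86, and that for *Ltb* between 0.45 and 0.96. The ratio of *Tnfsf8* was 0.83 (0.37 to 1.29) at 0 UMIs and 0.04 (−0.25 to 0.35) at 4 or more, and its interval included 0 in every division but the first. The ratio of *Tnfsf11* was 0.57 (0.02 to 1.11) at 1 UMI and −0.61 (−1.07 to −0.16) at 4 or more, so its direction differed between divisions.

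**Figure D5:**
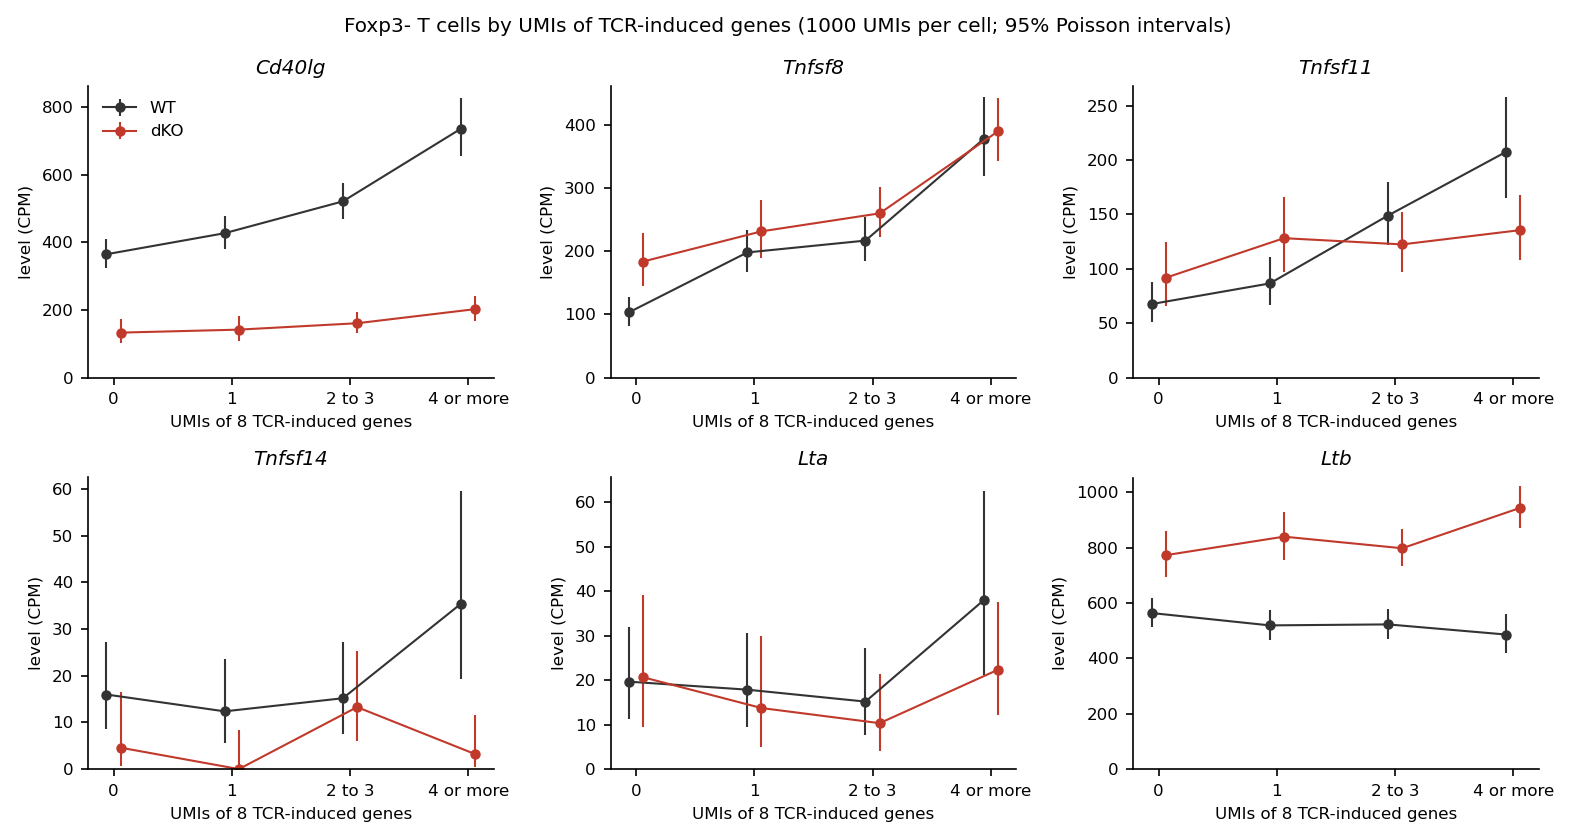
Level in CPM of each ligand in Foxp3- T cells with 0, 1, 2 to 3 and 4 or more UMIs of 8 receptor-induced genes, each cell thinned to 1000 UMIs, with exact 95% Poisson intervals, WT-labelled in black and dKO-labelled in red. Among WT-labelled divisions *Cd40lg*, *Tnfsf8* and *Tnfsf11* are highest in the last, at 737, 377 and 208 CPM, beside 203, 389 and 136 CPM in the last division labelled dKO. *Ltb* lies at 564 and 486 CPM in the first and last division labelled WT and at 773 and 944 CPM labelled dKO.

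Cycling cells, with at least 2 UMIs of *Mki67*, *Top2a* and 6 other cell cycle genes, were compared with non-cycling cells. For Foxp3+ cells these were all Foxp3+ cells outside the cycle, and for Foxp3- cells the class of other Foxp3- cells, which leaves out naive-like cells and cells with *Ifng*, *Il17a* or *Il17f*. In Foxp3- cells 0 of 6 members labelled WT and 1 of 6 labelled dKO (*Tnfsf11*) were past 2-fold lower in cycling cells, beside 6.18% and 11.1% of genes. In Foxp3+ cells 3 of the 4 members with 20 UMIs labelled WT (*Cd40lg*, *Tnfsf8* and *Tnfsf11*) and 1 of 5 labelled dKO (*Cd40lg*) were, beside 8.77% and 9.40% of genes. In Foxp3- cells the log2 ratio of cycling over other Foxp3- cells was −0.67 (−0.81 to −0.52) labelled WT and −0.78 (−0.92 to −0.64) labelled dKO for *Ltb*, and −0.85 (−1.07 to −0.63) and −0.79 (−1.04 to −0.54) for *Tnfsf8*. In Foxp3+ cells the log2 ratio of cycling over non-cycling cells for *Cd40lg* was −2.30 (−3.25 to −1.48) and −1.20 (−2.11 to −0.39), and after thinning the dKO-labelled interval, with 1 UMI in cycling cells, included 0. Thinned WT-labelled Foxp3+ cells gave −0.73 (−3.13 to 1.03) for *Tnfsf8* and −0.88 (−4.06 to 1.24) for *Tnfsf11*, so neither was past 2-fold, while *Ltb* was, at −1.26 (−2.22 to −0.44). *Lta* had intervals that included 0 in all 4 of these contrasts before thinning. After thinning it was higher in cycling than in other Foxp3- cells labelled WT (1.14, 0.07 to 2.16). Cycling cells were deeper, with medians of 3636.5 and 4350.5 UMIs in Foxp3- cells, beside 1752.5 and 1389.5 in the other cells. Naive-like cells held less *Tnfsf8* than other Foxp3- cells in both libraries, with log2 ratios of −1.70 (111 and 710 UMIs) and −0.41 (−0.78 to −0.07), and less *Tnfsf11*, with −1.39 (−1.76 to −1.03) and −1.69 (−2.57 to −0.92). Of the 6 members, 3 labelled WT and 1 labelled dKO were past 2-fold lower there, beside 10.4% and 16.0% of genes. After thinning to 1000 UMIs the *Tnfsf8* ratio labelled dKO was −1.52 (−2.37 to −0.78), past 2-fold, and that labelled WT −2.07 (−2.67 to −1.52). Thinning also left out shallower cells, and the part of depth in this shift was not tested.

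Shares of cells with at least 1 UMI were taken after thinning to 1000 UMIs, which left out 1929 and 3071 shallower cells. *Cd40lg* was detected in 32.9% (31.1 to 34.7) of Foxp3- cells labelled WT and 12.6% (11.2 to 14.0) labelled dKO, and in 51.8% and 19.2% before thinning. In Foxp3+ cells it was detected in 13.4% and 2.59%. The pDC gate, with median depths of 1560 and 3006 UMIs, gave 4.13% and 0.557%. Free RNA, doublets and cells placed in the wrong gate cannot be told apart there. The 2.59% of Foxp3+ cells labelled dKO was above the pDC share of its own library. *Ltb* was detected in 36.1% and 49.3% of Foxp3- cells, 41.6% and 60.1% of Foxp3+ cells and 8.99% and 6.24% of the pDC gate. *Tnfsf8* was detected in 12.4% and 16.1% of Foxp3- cells, and in 33.3% and 45.8% of those with *Il17a* or *Il17f*, beside 1.38% and 0.955% of the pDC gate. *Tnfsf11* was detected in 8.23% and 7.90%, *Tnfsf14* in 1.73% and 0.597% and *Lta* in 1.92% and 1.56% of Foxp3- cells. For *Lta* the pDC gate had 0.642% and 0.531%, a larger part of the T cell share than for the other members named here.

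The lower *Cd40lg* level of the library labelled dKO went with fewer positive cells and with fewer UMIs in each. After thinning to 1000 UMIs, positive Foxp3- cells held a mean of 1.46 UMIs labelled WT and 1.30 labelled dKO, and 68.6% and 77.7% of them held 1. Before thinning, when the WT-labelled cells were deeper, the means were 2.23 and 1.55. For *Ltb* the thinned means were 1.46 and 1.71. Before thinning *Tnfsf8* positive cells held means of 2.46 and 2.29 UMIs, with as many as 27 and 23 in 1 cell. The means before thinning were 2.13 and 2.32 for *Ltb* and 1.97 and 1.93 for *Tnfsf11*. Thinned *Tnfsf8* means were 1.62 and 1.71. *Tnfsf14* positive cells held a mean of 1.11 UMIs labelled WT and 1 UMI each labelled dKO before thinning.

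Most T cells carried UMIs of no more than 1 ligand. After thinning, 34.9% of Foxp3- cells labelled WT and 35.5% labelled dKO had no member, 42.0% and 45.8% had 1, 18.7% and 14.5% had 2, and 4.40% and 4.18% had 3 or more. Of Foxp3+ cells labelled dKO 58.0% had exactly 1 member. *Tnfsf8* and *Tnfsf11* shared cells more often than the product of their shares gives, in 59 Foxp3- cells labelled WT beside 27.1 (ratio 2.18, 1.66 to 2.81) and in 71 labelled dKO beside 27.7 (2.56, 2.00 to 3.23). *Tnfsf8* and *Lta* had ratios of 2.70 (1.57 to 4.32) and 2.92 (1.67 to 4.74). *Cd40lg* had ratios of 1.23 (1.03 to 1.46) and 1.56 (1.22 to 1.98) with *Tnfsf8*. With *Tnfsf11* they were 1.29 (1.04 to 1.58) and 1.76 (1.24 to 2.41). Its intervals with *Tnfsf14* and *Lta* included 1. *Cd40lg* and *Ltb*, detected together in 303 and 146 cells, had ratios of 0.957 (0.852 to 1.07) and 1.08 (0.912 to 1.27), close to independence.

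Over 22 points, each a class of at least 100 cells in a library, the genes whose level followed a member most closely among 7453 were ranked by Spearman's rho. *Tnfsf11* was the gene closest to *Tnfsf8*, with a rho of 0.896. *Cd2* (0.971), *Il27ra* (0.964) and *Il2rg* (0.941), which encode surface molecules of T cells, were closest to *Ltb*. *Klrc1* (0.913) led for *Cd40lg*, *Lax1* (0.912) for *Tnfsf11*, *Zfp36l2* (0.914) for *Tnfsf14* and *Atp10a* (0.934) for *Lta*. The points share their library and mix T cell with other classes, so these are descriptions of a class pattern.

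The other genes of the pathway were taken as fixed lists. Of 12 other TNF family ligands, 7 had enough UMIs in Foxp3- T cells, of which *Tnf* and *Fasl* were past 2-fold lower in the library labelled dKO and *Tnfsf4* and *Cd70* past 2-fold higher, beside 4.66% and 4.37% of all genes. *Tnf*, the cytokine gene between *Ltb* and *Lta*, was 74.5 and 35.6 CPM (log2 ratio −1.06, −1.32 to −0.82), while *Ltb* was higher in the same cells. *Fasl*, which encodes the ligand of the death receptor FAS, was 104 and 51.7 CPM (−1.01, −1.22 to −0.80). *Tnfsf4* (OX40 ligand) and *Cd70* rested on few UMIs, at 1.27 and 3.87 CPM and at 1.69 and 6.72 CPM. In Foxp3+ cells 4 of the 12 had enough UMIs, and *Fasl* (−2.36) and *Tnfsf9* (−1.44) were past 2-fold lower, beside 4.56% of all genes.

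Of 9 receptor genes, 5 had enough UMIs in Foxp3- T cells and none was past 2-fold in either direction, beside 4.37% of all genes higher and 4.66% lower. In Foxp3+ cells 1 of 5 was past 2-fold higher, *Tnfrsf14* (HVEM), from 2 and 31 UMIs (1.95, −0.02 to 5.06), beside 5.49% of all genes. In Foxp3- cells *Btla*, an inhibitory receptor that shares HVEM with LIGHT, was lower in the library labelled dKO (52.8 and 28.7 CPM; −0.88, −1.17 to −0.60), and *Tnfrsf1b* (TNF receptor 2) higher (153 and 208 CPM; 0.45, 0.32 to 0.57). Of 8 signalling genes none was past 2-fold in either gate, where 4.37% and 5.49% of all genes were higher and 4.66% and 4.56% lower, with *Map3k14*, the kinase NIK of the non-canonical NF-κB route, at 72.9 and 47.6 CPM (−0.61, −0.84 to −0.39) and *Traf3*, which restrains it, at 87.0 and 127 CPM (0.55, 0.39 to 0.71). Of the receptors of the members, *Cd40*, *Ltbr* and *Tnfrsf11a* had higher levels outside the T cells. *Cd40* was 21.6 and 47.8 CPM in the myeloid gate and at most 1.41 CPM in Foxp3+ and Foxp3- T cells. *Ltbr* was 20.5 and 41.1 CPM in the myeloid gate and 8.28 and 11.8 CPM in the pDC gate. *Tnfrsf11a*, which encodes RANK, was 76.2 and 42.1 CPM in ILC3-like cells (7 and 2 UMIs) and 40.9 and 24.9 CPM in the myeloid gate. *Tnfrsf11b*, the decoy receptor osteoprotegerin, had 0 UMIs in both libraries, which allows up to 0.157 and 0.0976 CPM over all cells.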

How the data were processed

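Hepatic CD4+ T cells were captured with a 5′ droplet kit that also sequenced T cell receptors, in 1 library per genotype with 2 mice pooled in each. The authors deposited raw UMI counts per gene and cell, made with Cell Ranger 7.0.1 (per the file headers) on mm10 (per the labels), and receptor contigs with UMI and read counts. The cell filter kept cells in which over 200 genes were detected and mitochondrial UMIs stayed under 5%. Droplets with several TRB chains, with a TRB contig beside another lineage, or with several lineages were left out as mixed; no doublet caller was used except as an alternative. For each class the UMIs of a gene were added up and divided by all UMIs of its cells (CPM). Levels are given with exact Poisson intervals, log2 ratios with exact conditional binomial intervals and shares of cells with Clopper-Pearson intervals. PCR duplicates were collapsed by UMI. Thinning drew 1000 UMIs per cell without replacement. The 2-fold shares cover genes with at least 20 UMIs over the pair of profiles. Gates and thinning used numpy 2.4.6, pandas 2.3.3 and scipy 1.17.1 in Python 3.11.15, Scrublet ran in scanpy 1.11.5, and edgeR 4.0.16 in R 4.3.3 gave TMM factors only. Gene positions came from GENCODE for GRCm38 and promoter sequences from RefSeq for GRCm38.p6. The interval and ratio functions and the gates were tested on simulated data. The members, lists and tests were chosen with earlier results of these data known. Named genes are the 6 members, the listed receptors, signalling genes and other ligands, the 3 genes with the highest Spearman's rho to each member (at least 100 cells per point and 30 CPM at some point, without gate, receptor, immunoglobulin, mitochondrial and ribosomal genes), *Nr4a1* and *Nr4a2*. The alternatives varied the cell filter, doublets, ribosomal content, gates, clones, averaging, TMM scaling, thinning depth and the UMI minimum. Some genes of the gate lists are not reported here.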

Additional observations from a re-analysis of the deposited data

Results flagged for a closer look

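*Tnfsf8* went in opposite directions in the gates of T cells. The log2 ratio of dKO over WT was 0.45 (0.35 to 0.56) in Foxp3- T cells, from 1378 and 1457 UMIs, and −0.86 (−1.17 to −0.54) in Foxp3+ T cells, from 272 and 123 UMIs. After thinning to 1000 UMIs per cell the Foxp3+ ratio was −0.26 (−0.94 to 0.49), with an interval that included 0. With 1 library per genotype the difference between the gates was not tested.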

How the results depend on the processing

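Over 24 log2 ratios and their alternatives, 255 planned and 49 added values lay within the interval of the value reported, 31 and 17 lay outside it, and no ratio whose interval excluded 0 had the opposite sign. Among levels, shares and counts of genes past 2-fold 1818 stayed within their limits and 218 did not. The limits were the interval for levels and shares and a set fold for the counts of genes. With at least 50 UMIs, 3.14% of genes were past 2-fold higher in the library labelled dKO and 3.12% lower in Foxp3- cells. In Foxp3+ cells these shares were 3.44% and 2.72%. Ratios of dKO over WT in Foxp3- cells ranged from −1.84 to −0.94 for *Cd40lg*, 0.16 to 0.93 for *Tnfsf8*, −0.45 to 0.44 for *Tnfsf11*, −1.74 to −0.91 for *Tnfsf14*, −0.57 to −0.0032 for *Lta* and 0.38 to 0.68 for *Ltb*. In Foxp3+ cells they ranged from −3.31 to −2.24, −1.38 to −0.35, −2.57 to −1.37, −4.87 to −1.93, −1.68 to −0.47 and 0.53 to 0.71. The cause of the following shifts was not tested. Without the highest Scrublet scores (899 and 2491 cells) the ratio in Foxp3+ cells was −3.31 for *Cd40lg* and −1.32 for *Tnfsf8*, and Foxp3+ over Foxp3- was −1.47 (WT) and −3.28 (dKO) for *Cd40lg*, −1.91 for *Tnfsf8* (dKO) and −2.66 for *Tnfsf11* (dKO), while *Tnfsf14* had 0 UMIs and no ratio. With at least 2 *Foxp3* UMIs, dKO over WT in the remaining T cells was −1.81 for *Cd40lg*, 0.29 for *Tnfsf8*, −0.38 for *Tnfsf11* and 0.68 for *Ltb*, that of *Tnfsf8* in Foxp3+ cells was −1.38, and Foxp3+ over Foxp3- was 0.060 for *Tnfsf8* (WT), −1.93 for *Cd40lg* (dKO) and 0.092 for *Ltb* (dKO). With gates read from thinned counts, dKO over WT in Foxp3- cells was −1.84 for *Cd40lg*, 0.16 for *Tnfsf8*, −0.45 for *Tnfsf11* and −0.54 for *Lta*, and in Foxp3+ cells −0.45 for *Tnfsf8* and −0.47 for *Lta*. Foxp3+ over Foxp3- was then −0.74 for *Tnfsf8* and −0.84 for *Lta* (WT), and −1.84 for *Cd40lg*, −1.35 for *Tnfsf8*, −1.78 for *Tnfsf11* and 0.37 for *Ltb* (dKO). With 1 cell per clonotype, dKO over WT was −1.15 for *Cd40lg*, 0.93 for *Tnfsf8* and 0.29 for *Tnfsf11* in Foxp3- cells, and −2.24 for *Cd40lg* and −0.35 for *Tnfsf8* in Foxp3+ cells. The next 3 alternatives were chosen after seeing the data. With T cells called by a TRB contig or a CD3 UMI, dKO over WT was −1.74 for *Cd40lg*, −0.44 for *Tnfsf11* and −0.57 for *Lta* in Foxp3- cells and −1.37 for *Tnfsf11* in Foxp3+ cells, and Foxp3+ over Foxp3- was −0.88 for *Cd40lg* (WT) and −1.53 for *Tnfsf11* (dKO). With only cells that had a *Cd4* UMI, dKO over WT in Foxp3- cells was 0.31 for *Tnfsf8* and −0.34 for *Tnfsf11*, and Foxp3+ over Foxp3- was −0.84 for *Cd40lg* (WT). With only Foxp3- cells that had no UMI of the 5 regulatory T cell genes, dKO over WT was −0.94 for *Cd40lg*, 0.89 for *Tnfsf8*, 0.44 for *Tnfsf11* and 0.38 for *Ltb*, and Foxp3+ over Foxp3- was 0.34 for *Tnfsf8* and 0.17 for *Tnfsf11* (WT), and −2.86 for *Cd40lg* and 0.53 for *Ltb* (dKO). The levels by class after thinning, the omission of 1 ILC3-like cell per library and the division of cells without a TRB contig by *Foxp3* were also chosen after seeing the data. TMM factors lay between 0.965 and 1.06. Depth limits *Tnfsf14* and *Lta* most. No paired analysis was possible because each genotype has 1 library.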

Other observations

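The 10 cells labelled WT with both *Ifng* and *Il17a* or *Il17f* had 46 UMIs of *Cd40lg*, 1542 CPM, and the 2 such cells labelled dKO had 1 UMI.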
